A study of Mus musculus with 2 samples.

Results

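The cells described here were B lymphocytes from mouse melanoma that carried at least 1 unique molecular identifier (UMI, the tag that marks 1 captured RNA molecule) of Cd83. A cell was taken when it held at least 2 UMIs of Cd79a, at least 1 of Ms4a1, at least 1 of Cd83, none of Cd3d, Cd3e or Ncr1 and at most 1 of Lyz2. This gave 566 cells of the 22284 kept in the series, 489 in the wild-type (WT) and 77 in the knockout (KO) library. The comparison cells were the 2282 B cells that passed the same gate with Cd83 at 0, 2048 WT and 234 KO. Both libraries came from living CD45+ leukocytes sorted from B16-F0 tumours, a transplantable mouse melanoma, 1 library per genotype, and the labels do not name the gene removed in the KO animals, the number of mice or their age. The labels call the cell type TIL-Treg, whereas the stated sort takes all CD45+ cells, and B-cell genes defined the cells used here. With 1 library per genotype no test across animals can be made, so every ratio below is a description of these libraries, and every interval, 95% throughout, covers counting error only.

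CD83 is a membrane protein of the immunoglobulin superfamily that mature dendritic cells and activated lymphocytes display. In B cells its transcript is induced by signals through the antigen receptor, CD40 and Toll-like receptors, largely by way of NF-kB, and the protein is known to slow the MARCH1-dependent turnover of MHC class II and CD86. Mouse Cd83 lies on chromosome 13 from 43784775 to 43803132 on the plus strand (GRCm38).

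The gate drew on Cd83 itself, so its level in the chosen cells is no finding. Cd83 was nevertheless uneven among gated classes. A Cd83 UMI was present in 19.3% [17.8, 20.9] of 2537 gated WT B cells and in 24.8% [20.1, 29.9] of 311 gated KO B cells. When every cell was thinned to 2000 UMIs, which left out 30 WT and 3 KO cells, the shares were 12.4% [11.1, 13.8] and 13.3% [9.72, 17.6], and these intervals overlap. At the same thinned depth 1.26% of WT and 1.34% of KO T cells held a Cd83 UMI, against 1.98% and 1.96% of NK cells and 6.58% and 8.27% of myeloid cells. Median raw depth was 3398 UMIs in WT and 3504 in KO B cells, against 5891 and 5662 in T cells. The thinned share in B cells was therefore above that of T and NK cells in both libraries, although the B cells were the shallower class. Mature dendritic cells, gated on Fscn1, were higher still, at 34.6% of 26 WT and 60.0% of 40 KO cells.

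**Figure D1:**
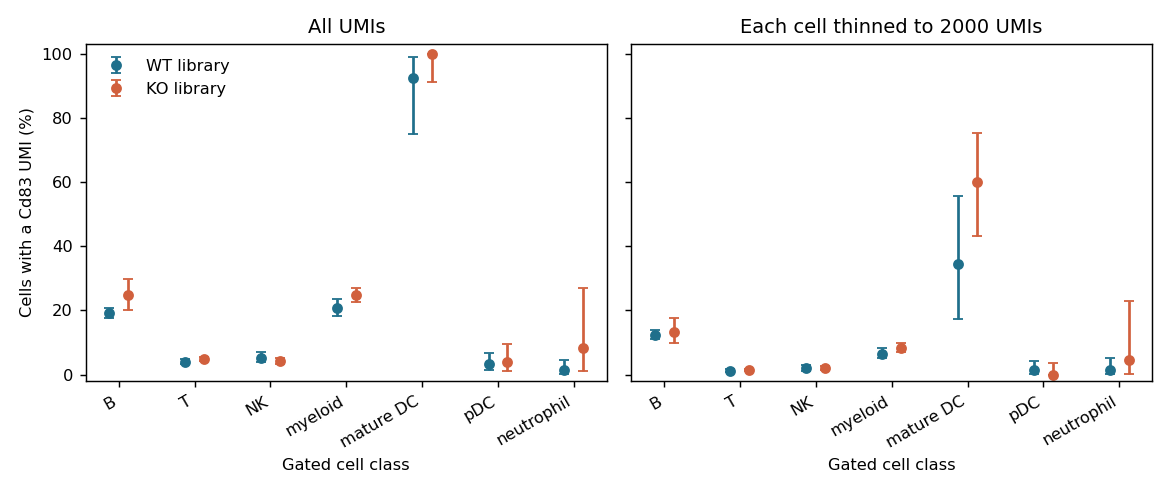
Percent of cells with at least 1 Cd83 UMI in each gated class, from all UMIs on the left and after thinning to 2000 UMIs per cell on the right. Points are the 2 libraries and bars are exact binomial 95% intervals; thinned B cells stand at 12.4% and 13.3%, above T and NK cells and below mature dendritic cells.

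Most of the chosen cells sat at the edge of the gate. In the WT library 333 cells had 1 Cd83 UMI, 87 had 2 and 69 had 3 or more, up to 11 in 1 cell. In the KO library the numbers were 51, 18 and 8. Just outside the gate, 755 WT and 89 KO cells with Cd79a at 2 or more had no Ms4a1 UMI, and 169 and 17 of them held Cd83. Depth was close between groups, with a median of 3536 UMIs in Cd83-expressing and 3376 in Cd83-0 WT cells, and 3793 and 3433 in KO cells. In all, the groups held 1943376 and 7355346 UMIs in WT and 367966 and 912662 in KO. A few deep cells weighed on the sums: 6 WT Cd83-expressing cells above 10000 UMIs held 5.39% of the group's UMIs, and 4 KO cells held 14.7%. Levels are given as CPM, the summed UMIs of a gene scaled to the summed UMIs of the group in the usual way.

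Both groups passed the same Cd79a and Ms4a1 gate, so a likeness in B-cell genes does not show what the chosen cells are. Of 19 B-cell identity genes measured, none passed the size rule in WT, with a median log2 ratio of -0.08. In this rule a gene counts as higher or lower when the ratio is at least 1.5-fold and its interval leaves out 1, among genes with 50 or more UMIs over both groups. Over all measured WT genes 4.13% passed, so 0 of 19 is near that share. In KO Blk was higher and Vpreb3 lower, median -0.16, against 6.63% of all measured genes past the rule. Cd79a, the signalling chain of the antigen receptor, stood at 2557 CPM in WT and 2239 in KO Cd83-expressing cells, and at 2867 and 2732 CPM in the Cd83-0 cells. Pou2af1, a B-cell transcriptional coactivator, was at 222.8 against 219.3 CPM in WT and 165.8 against 185.2 CPM in KO, log2 ratios of 0.02 [-0.13, 0.18] and -0.16 [-0.61, 0.27]. Scd1, a desaturase that makes monounsaturated fatty acids, was at 389.5 against 283.9 CPM in WT (0.46 [0.33, 0.58]) and 269.0 against 282.7 CPM in KO (-0.07 [-0.42, 0.27]). Cd69, an early activation antigen, was at 292.8 against 267.6 CPM in WT and 440.3 against 376.9 CPM in KO, both short of the rule. Pou2af1, Scd1 and Cd69 thus did not reach the rule in either library, so the cells are named here by the gate, as Cd83-expressing B cells.

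Within the WT library 346 of 8372 measured genes (4.13%) passed the size rule, 160 higher (1.91%) and 186 lower (2.22%) in Cd83-expressing cells. In the KO library, with fewer cells, 198 of 2987 (6.63%) passed, 94 higher (3.15%) and 104 lower (3.48%). Among 2986 genes measured in both libraries, 10 (0.335%) were higher past the rule in each: Cd274, Bcl2a1b, Il4i1, Myc, Kdm6b, Nfkbid, Rilpl2, Hspa1a, Hspa1b and Hist1h1b. The Hist1h1b call in WT was lost without cells above 10000 UMIs, at log2 0.089. In KO the minimum UMI count favoured genes high in Cd83-expressing cells. Cd274, Nfkbid and Hspa1b just reached it, with 24, 29 and 25 UMIs in Cd83-expressing and 26, 21 and 25 in Cd83-0 cells. Bst2 and Ighg2b were lower in both (0.067%), and no gene passed in opposite directions. Ighg2b rested on few cells, with 8 WT UMIs in 2 and 11 KO UMIs in 3 Cd83-expressing cells. In WT Cd83-0 cells 52.1% of its UMIs were in 1 cell.

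Sequence just upstream of these genes was read from RefSeq promoter windows (GRCm38.p6, 250 bases before to 50 after a start), which held 7 of the 10. An NF-kB-like string, GGGNNNNNCC on either strand, occurred in a window of 6 of the 7 genes, all but Cd274, and in 53.5% of the 27025 genes in the table. Hspa1a and Hspa1b, near-identical copies, are both among the 6. Genes with several starts, such as Nfkbid, have more chances to hold it, and a match is not a bound site. The 3 windows below are shown because they belong to genes that code for an NF-kB regulator, a survival protein and an amino-acid oxidase in the group higher in both libraries. Nfkbid has windows with 4, 2 and 1 matches, and the one with 2 is shown. Capitals mark matches to the string, which overlap where a run is longer than 10 bases.

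Nfkbid, chr7:30422156-30422455, plus strand: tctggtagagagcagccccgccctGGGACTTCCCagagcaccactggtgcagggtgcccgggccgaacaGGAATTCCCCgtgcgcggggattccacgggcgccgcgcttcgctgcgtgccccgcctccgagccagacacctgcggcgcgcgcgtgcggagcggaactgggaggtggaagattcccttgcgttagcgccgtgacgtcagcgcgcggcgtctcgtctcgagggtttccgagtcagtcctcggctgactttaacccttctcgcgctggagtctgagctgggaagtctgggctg
Bcl2a1b, chr9:89199023-89199322, plus strand: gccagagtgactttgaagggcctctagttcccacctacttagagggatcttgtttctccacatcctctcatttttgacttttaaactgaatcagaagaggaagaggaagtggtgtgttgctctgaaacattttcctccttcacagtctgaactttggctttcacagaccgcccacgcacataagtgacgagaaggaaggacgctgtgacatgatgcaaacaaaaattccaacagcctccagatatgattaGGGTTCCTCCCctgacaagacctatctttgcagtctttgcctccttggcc
Il4i1, chr7:44836038-44836337, plus strand: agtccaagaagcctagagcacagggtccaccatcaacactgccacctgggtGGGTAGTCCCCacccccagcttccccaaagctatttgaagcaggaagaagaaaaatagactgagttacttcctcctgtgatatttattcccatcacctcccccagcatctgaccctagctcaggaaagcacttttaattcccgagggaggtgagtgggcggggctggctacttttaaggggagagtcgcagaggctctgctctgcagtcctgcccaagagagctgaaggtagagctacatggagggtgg

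Several B-cell activation genes were higher in the Cd83-expressing cells of both libraries. Cd274, which encodes the checkpoint ligand PD-L1 (chromosome 19, 29367455 to 29388095, plus strand), was at 81.3 CPM in Cd83-expressing and 25.02 CPM in Cd83-0 WT cells, and at 65.2 and 28.5 CPM in KO. Its log2 ratios were 1.70 [1.38, 2.02] and 1.20 [0.33, 2.05]. The higher level thus appeared in both libraries, with overlapping intervals. Bcl2a1b, a BCL2-family survival gene, was at 123.5 against 44.3 CPM in WT and 182.1 against 49.3 CPM in KO, log2 1.48 [1.23, 1.72] and 1.88 [1.32, 2.46]. Bcl2a1b and Bcl2a1d are near-identical copies and their reads may be divided unevenly by the counting. Myc, the growth regulator on chromosome 15 (61985391 to 61990374), was at 71.5 against 32.9 CPM in WT and 70.7 against 30.7 CPM in KO, log2 1.12 [0.81, 1.43] and 1.20 [0.38, 2.03]. Il4i1, a secreted amino-acid oxidase, was at 55.1 against 30.05 CPM in WT and 108.7 against 37.2 CPM in KO, log2 0.87 [0.53, 1.21] and 1.54 [0.85, 2.25]. These 4 genes were therefore higher in Cd83-expressing cells of both genotypes, while the costimulatory genes Cd86 and Cd40 stayed short of the rule. Cd274, Bcl2a1b and Il4i1 were more abundant in another gated class, at up to 408.7, 3022 and 913.6 CPM. The part of such RNA in these ratios was not tested. For Cd274, Bcl2a1b, Myc and Il4i1 the top KO cell held 16.7%, 14.9%, 23.1% and 20% of the UMIs of its group. Cd86 was at 81.8 against 60.6 CPM in WT and 100.6 against 70.1 CPM in KO, and Cd40 at 45.3 against 41.7 and 35.3 against 35.1 CPM. Of the 20 activation genes measured in WT, 8 were higher and none lower, median log2 0.48, against a median of -0.02 over all measured genes. In KO 5 of 9 were higher, median 1.14, against -0.02 over all, and that median was 0.63 without the cells above 10000 UMIs. Only 9 of the 25 list genes reached the minimum UMI count in KO. Cd274 did so with 24 UMIs in Cd83-expressing and 26 in Cd83-0 cells, and Myc with 26 and 28. The minimum thus favoured genes high in Cd83-expressing cells, and the KO count and median describe only the genes that reached it.

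Of the early response to antigen receptor signalling, Nr4a1, Egr1, Egr3 and Kdm6b were higher in WT and Kdm6b in KO, and the difference between libraries was not tested. Nr4a1, an orphan nuclear receptor induced rapidly by receptor engagement, was at 72.0 against 33.4 CPM in WT (log2 1.11 [0.80, 1.41]) and 70.7 against 43.8 CPM in KO (0.69 [-0.08, 1.44]). Egr3, a zinc-finger factor of the same response, was at 45.8 against 22.3 CPM in WT and 67.9 against 26.3 CPM in KO, log2 1.04 [0.65, 1.42] and 1.37 [0.50, 2.24], the KO value resting on fewer than 50 UMIs. Egr1 went one way in WT, 105.5 against 67.2 CPM, and the other in KO, 81.5 against 110.7 CPM (log2 -0.44 [-1.08, 0.16]). Fos was at 454.4 against 377.8 CPM in WT and at 345.1 against 415.3 CPM in KO, neither past the rule. Over the list, 4 of 18 genes were higher in WT (median 0.14) and 1 of 16 in KO (median -0.19), against 1.91% and 3.15% of all measured genes. The gene higher in both was Kdm6b, an H3K27 demethylase, at 58.1 against 37.0 CPM in WT and 81.5 against 35.1 CPM in KO. Whether the difference between libraries in Egr1 exceeds animal-to-animal spread cannot be told from 1 library each.

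Among NF-kB genes, Rel, the c-Rel subunit, was at 327.8 against 226.4 CPM in WT and 320.7 against 206.0 CPM in KO, log2 0.53 [0.40, 0.67] and 0.64 [0.29, 0.98], past the rule in KO. Nfkbid, a nuclear IkB protein (chromosome 7, 30421732 to 30428746), was at 67.9 against 36.4 CPM in WT and 78.8 against 23.0 CPM in KO. A single KO cell held 48.3% of the Nfkbid UMIs of its group. Nfkbia, the feedback inhibitor, was at 220.8 against 207.1 CPM in WT and 244.6 against 215.9 CPM in KO, and Nfkb1 at 126.1 against 118.4 and 163.1 against 130.4 CPM, none past the rule. In all 1 of 17 was higher in WT and 3 of 12 in KO, medians 0.22 and 0.30, against 1.91% and 3.15% of all measured genes. The minimum UMI count favoured genes high in Cd83-expressing KO cells. Nfkbid just reached it with 29 UMIs in Cd83-expressing and 21 in Cd83-0 cells, and Nfkbie with 22 and 29. A single gene of 17 does not set the list apart in WT.

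Irs2 codes for an adaptor of the insulin and IGF receptors. It was at 161.1 against 77.8 CPM in WT, log2 1.05 [0.85, 1.25], and at 67.9 against 57.0 CPM in KO, log2 0.25 [-0.50, 0.97]. It was the single gene past the rule among 18 of lipid synthesis and insulin signalling measured in WT, whose median was 0.01. None of the 4 measured in KO passed. Over all measured genes 4.13% passed in WT and 6.63% in KO. On the MYC-linked list of ribosome biogenesis and metabolism, 2 of 19 were higher in WT, Myc itself and Srm (median 0.24), and 7 of 17 in KO, Myc among them (median 0.48). The shares of all measured genes that were higher were 1.91% and 3.15%. Of other genes that led the WT ranking, Vps37b, an endosomal sorting subunit, was at 178.0 against 102.8 CPM in WT and 168.5 against 112.9 CPM in KO. Plaur, the urokinase receptor, was at 61.2 against 34.0 and 62.5 against 39.4 CPM, and Crem, a cAMP-responsive repressor and activator, at 31.4 against 15.5 and 43.5 against 34.0 CPM. Hmgn3 and Rasgef1b were also past the rule in WT and had fewer than 50 UMIs in KO. Nme1, a nucleoside diphosphate kinase, was at 129.2 against 99.5 CPM in WT and 228.3 against 132.6 CPM in KO.

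**Figure D2:**
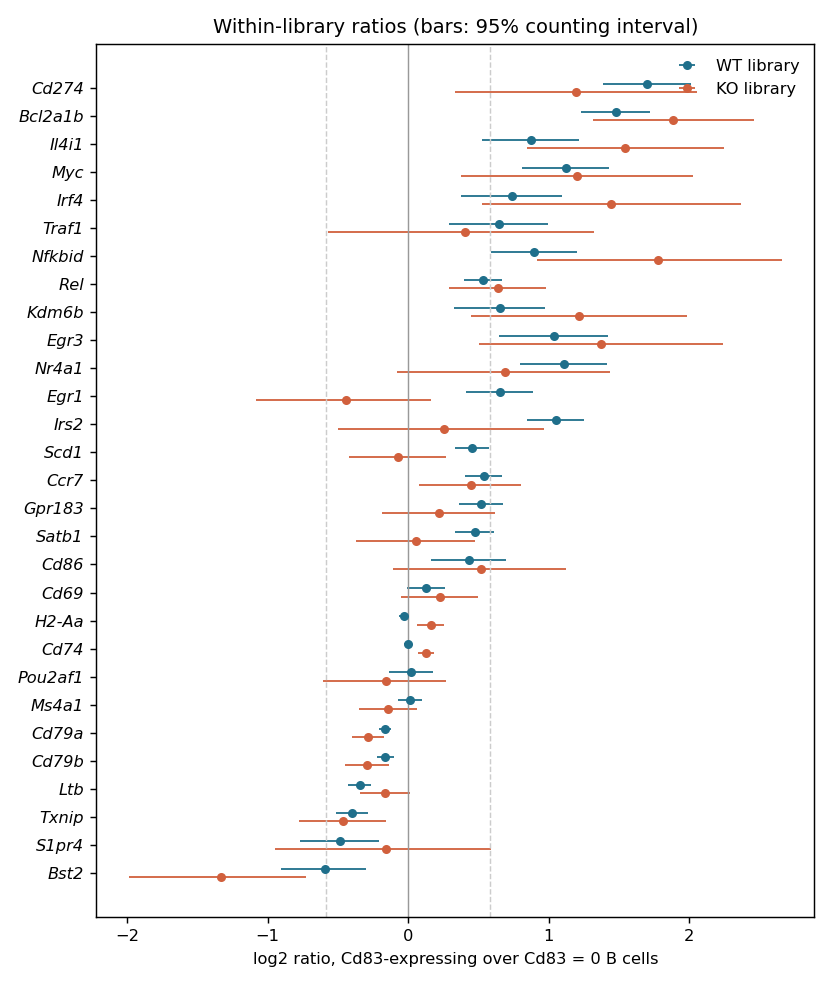
Log2 ratio of Cd83-expressing over Cd83-0 B cells for genes named in the text, WT and KO libraries side by side, with 95% counting intervals; dashed lines mark 1.5-fold. Cd274, Bcl2a1b, Il4i1 and Myc lie right of the line in both libraries, Irs2 in WT alone, and H2-Aa, Cd74 and Ms4a1 lie near 0.

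None of the 13 MHC class II genes passed the rule in either library, with medians of -0.03 in WT and 0.02 in KO. Over all measured genes 4.13% passed in WT and 6.63% in KO, so 0 of 13 is near those shares. H2-Aa, an MHC class II alpha chain, was at 3549 against 3621 CPM in WT and 3710 against 3321 CPM in KO, log2 -0.03 [-0.07, 0.01] and 0.16 [0.07, 0.25]. H2-Ab1, H2-Eb1 and Cd74 were also slightly higher in KO, log2 0.22 [0.12, 0.31], 0.12 [0.02, 0.23] and 0.13 [0.07, 0.18]. In WT their ratios were 0.01, 0.04 and -0.004. In KO 7 of the 13 ratios were above 0. March1, the ubiquitin ligase that removes MHC class II and CD86 from the surface, was at 141.5 against 153.4 CPM in WT and 119.6 against 175.3 CPM in KO, log2 -0.12 [-0.31, 0.08] and -0.55 [-1.07, -0.06].

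On the lower side, Txnip, a thioredoxin inhibitor, was at 408.6 against 538.7 CPM in WT and 304.4 against 419.7 CPM in KO, log2 -0.40 [-0.51, -0.29] and -0.46 [-0.78, -0.16]. Ltb, a lymphotoxin subunit, was at 730.2 against 927.5 CPM in WT and 978.4 against 1095 CPM in KO. Neither Txnip nor Ltb reached 1.5-fold, although their WT intervals lay below 0. Nhlrc2 did reach it in WT, at 8.23 against 21.3 CPM, as did Fam53a, Dyrk2, Slc30a9, Cers2, Rfk, Rab3gap2, Zfand2b and Smim4, with log2 ratios from -0.97 for Fam53a to -0.61 for Smim4. Of these only Cers2 and Rfk had 50 UMIs in KO, and both were short of it there. Bst2, an interferon-induced membrane protein, was at 55.6 against 83.9 CPM in WT and 70.7 against 177.5 CPM in KO; without cells above 10000 UMIs its WT log2 ratio was -0.08, from -0.59. Bst2 is also abundant in plasmacytoid dendritic cells. The 18 naive and homing genes gave no call in WT, with Ccr7, a lymph node homing receptor, at 322.1 against 222.0 CPM, and 1 lower call in KO, Bach2. Over all measured genes 4.13% passed in WT and 6.63% in KO.

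Splitting the chosen cells by their number of Cd83 UMIs showed larger differences in activation genes among the cells with 2 or more than among those with 1. In WT, Cd274 was at 25.02, 36.6, 106.2 and 245.7 CPM in cells with 0, 1, 2 and 3 or more Cd83 UMIs. Bcl2a1b went from 44.3 to 67.6, 118.6 and 381.0 CPM. Myc was at 32.9, 40.6, 88.9 and 185.2 CPM, so cells with 1 Cd83 UMI were near the Cd83-0 cells. Nr4a1 was at 33.4, 39.0, 61.7 and 235.0 CPM, with 34.8% of the last bin's UMIs in 1 cell. Egr3 stood at 22.3, 23.1, 51.9 and 138.9 CPM and Rel at 226.4, 258.4, 335.9 and 626.7 CPM. Irs2 differed in shape, already at 130.4 CPM with 1 Cd83 UMI and then 209.9 and 227.9, from 77.8 at 0. Scd1 was likewise graded in WT, 283.9, 363.4, 422.4 and 459.3 CPM. The median depth of the bins was 3376, 3504, 3635 and 3632 UMIs, and the order of each of these genes was kept in cells thinned to 2000 UMIs.

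Other genes went down along the same bins. Ltb was at 927.5, 828.5, 587.8 and 494.9 CPM in WT, and S1pr4, a sphingosine phosphate receptor of lymphocyte egress, at 90.8, 76.3, 51.9 and 32.0 CPM. Cd79a, part of the gate, was at 2867, 2755, 2386 and 1916 CPM and its partner Cd79b at 1546, 1535, 1188 and 972.1 CPM. Homing genes did not share 1 direction, since Ccr7 was at 222.0, 275.1, 326.0 and 527.0 CPM, Gpr183, an oxysterol receptor that guides B cells, at 163.0, 220.2, 190.2 and 356.1 CPM, and Satb1, a chromatin organiser, at 210.3, 248.1, 298.9 and 480.7 CPM. March1 was at 153.4, 162.2, 118.6 and 81.9 CPM while Cd86 was at 60.6, 69.2, 88.9 and 128.2 CPM. H2-Aa stayed between 3139 and 3696 CPM over the bins with no order.

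**Figure D3:**
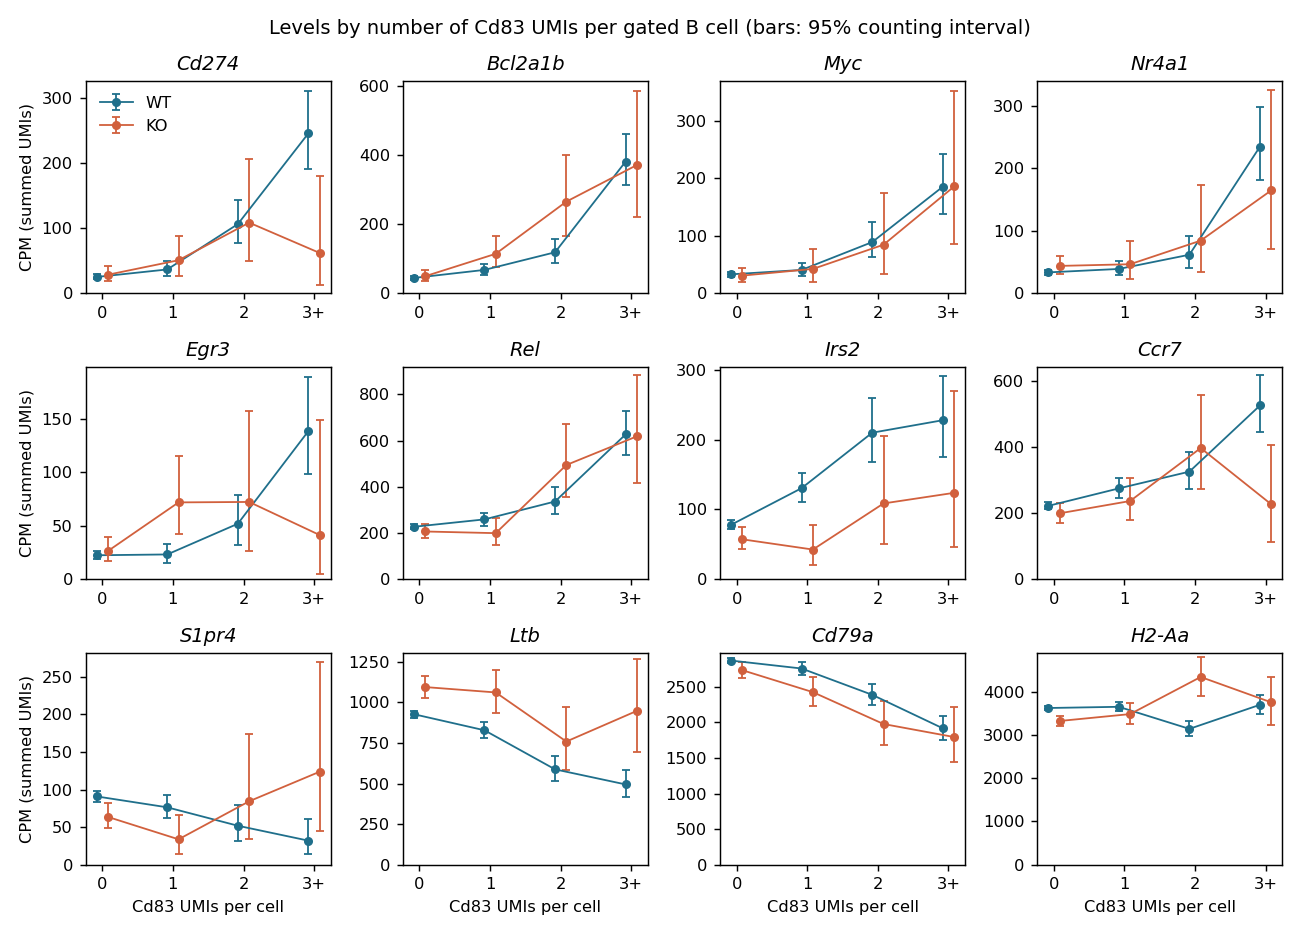
CPM of 12 genes in gated B cells with 0, 1, 2 and 3 or more Cd83 UMIs, with 95% counting intervals, WT and KO libraries. In WT, Cd274 goes from 25.02 to 245.7 CPM and Ltb from 927.5 to 494.9 CPM, and H2-Aa shows no order; the KO bins hold 234, 51, 18 and 8 cells.

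In the KO library the bins are small, with 8 cells in the last. Bcl2a1b was at 49.3, 114.2, 265.1 and 371.0 CPM there, Myc at 30.7, 42.3, 84.4 and 185.5 CPM and Rel at 206.0, 198.8, 494.0 and 618.4 CPM. Txnip was at 419.7, 363.7, 241.0 and 123.7 CPM. For Cd274 the KO values were 28.5, 50.8, 108.4 and 61.8 CPM, the last from 2 cells, and Egr1 had no UMI in the 8 cells, where 3 UMIs would be 61.8 CPM. For Bcl2a1b and Myc the order over the 4 KO bins was that of the WT bins.

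Counted over whole lists in WT, cells with 1 Cd83 UMI differed from Cd83-0 cells in 2 of 19 activation genes, against 286 of all 8217 measured genes (3.48%), 108 higher (1.31%) and 178 lower (2.17%). Cells with 2 Cd83 UMIs differed in 6 of 19, against 573 of 8015 (7.15%), 362 higher (4.52%) and 211 lower (2.63%). With 3 or more, 10 of 19 activation genes were higher and 1, Tnfrsf13b, was lower, against 591 of 7968 (7.42%), 338 higher (4.24%) and 253 lower (3.18%). Median log2 ratios of the activation list were 0.24, 0.57 and 0.89 over the 3 bins. Without cells above 10000 UMIs the activation counts were 3, 10 and 10 of 19, with medians of 0.23, 0.82 and 0.64. Early-response genes gave 0, 4 and 8 of 18 higher and NF-kB genes 0, 2 and 7 of 17, the last being Rel, Relb, Nfkbia, Nfkbid, Nfkbie, Nfkbiz and Malt1. Identity genes gave 0, 0 and 2 of 19 lower, Cd79b and Vpreb3. Single WT cells showed the same order: after thinning, 7.21% of 2024 WT Cd83-0 cells had 5 or more UMIs of activation genes, against 7.58% of 330, 21.2% of 85 and 35.3% [24.1, 47.8] of 68 cells in the 3 bins. Even in the last bin the median was 4 such UMIs, with quartiles of 2 and 5, against 2 in Cd83-0 cells. In KO the shares were 13.9% of 231 Cd83-0 cells, 23.5% of 51, 44.4% of 18 and then 2 of 8 cells, so the last bin did not follow the WT order.

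Heat-shock and dissociation genes were higher in part of the Cd83 bins too. Of 16 measured in WT, 2, 6 and 10 were higher with 1, 2 and 3 or more Cd83 UMIs, with medians of 0.11, 0.55 and 0.82. Over all measured genes 1.31%, 4.52% and 4.24% were higher in these bins. Without cycling cells, those with 3 or more UMIs of 10 cycle genes, the middle bin had 2 of 16 higher and a median of 0.33. The last bin then had 10 of 16 higher and a median of 0.87. Without cells above 10000 UMIs the bins had 2 of 16, 5 of 16 and 10 of 15 higher. The medians were 0.13, 0.37 and 0.93. Hsp90aa1, a cytosolic chaperone, was at 266.5, 304.5, 479.2 and 580.4 CPM over the 4 bins, and Fos, which belongs to this list and to the early-response list, at 377.8, 407.1, 437.2 and 690.8 CPM. Hspa1a and Hspa1b, near-identical copies, were higher in both libraries, but 60.6% of Hspa1a UMIs in KO Cd83-expressing cells came from 1 cell. The mitochondrial share, capped at 10% by the cell filter, had a median of 4.52%, 4.45%, 4.09% and 3.99% over the WT bins. The part that tissue handling played in these values was not tested.

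Cell-cycle genes were 7 of 12 higher in WT Cd83-expressing cells, against 1.91% of all measured genes, but few cells carried them. Only 4 of 489 WT Cd83-expressing cells (0.818%) held 3 or more UMIs of 10 cycle genes, against 1 of 2048 Cd83-0 cells, and 0 of 77 (up to 3.90%) and 1 of 234 in KO. Without such cells Stmn1, a microtubule regulator of dividing cells at 55.1 against 23.8 CPM in WT, had a log2 ratio of -0.40 in place of 1.21. Hist1h1b and Hist1h2ae, replication histones, were also higher in WT, at 215.1 against 103.5 and 85.4 against 38.3 CPM, with 26.6% and 24.1% of the UMIs in 1 cell. Without cycling cells their log2 ratios were 0.10 and 0.35, from 1.06 and 1.16, and both calls were lost.

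**Figure D4:**
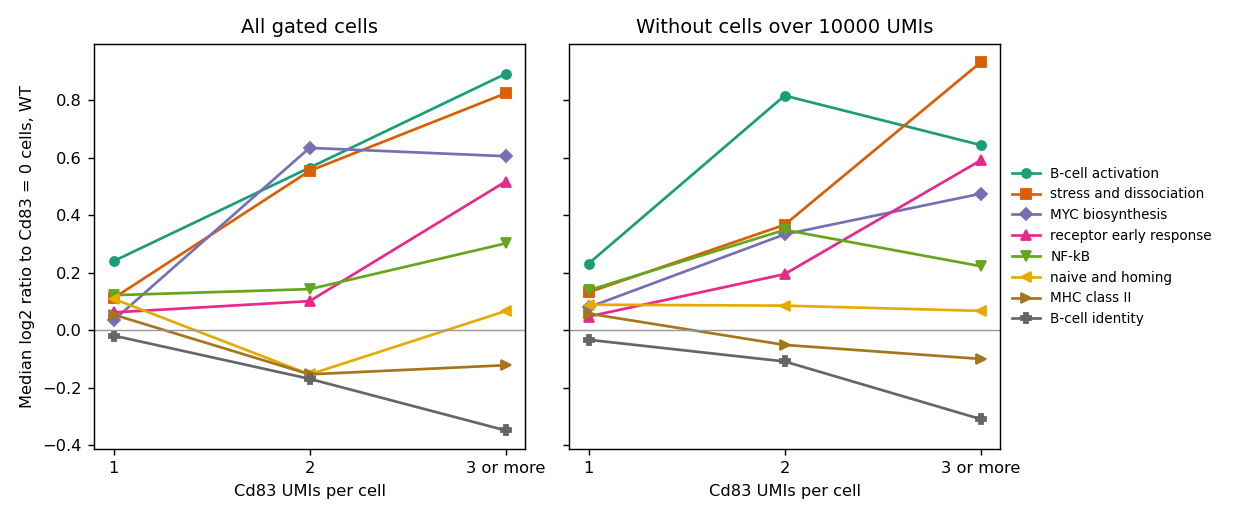
Median log2 ratio of 8 gene lists in WT B cells with 1, 2 and 3 or more Cd83 UMIs over Cd83-0 cells, for all gated cells and without cells above 10000 UMIs. Activation and stress lists reach 0.89 and 0.82 in the last bin on the left, and 0.64 and 0.93 on the right. B-cell identity goes to -0.35 on the left.

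RNA of other cell types was checked because mature dendritic cells share Cd83, Ccr7, Cd274 and Il4i1. Summed macrophage genes were at 459.5 CPM in Cd83-expressing and 441.9 in Cd83-0 WT cells, and 752.8 and 744.0 CPM in KO. Dendritic-cell genes were at 388.0 against 445.1 CPM in WT and 513.6 against 394.5 CPM in KO, where 38.1% of the UMIs came from 1 cell. By bins the WT values were 445.1, 349.1, 333.4 and 640.9 CPM, and 58.3% of the last came from 1 cell of 15959 UMIs with 11 Fscn1 and 33 Ccr7 UMIs beside 19 of Cd79a. That cell had over 10000 UMIs. With all such cells left out, Fscn1 was at 3.98 CPM in the last WT bin, Cd274 at 255.0, Bcl2a1b at 322.7, Myc at 203.2 and Ccr7 at 458.2 CPM, against 25.3, 43.1, 33.5 and 225.2 CPM at 0. Xcr1 and Clec9a, which define 1 type of dendritic cell, were at 0 in every WT bin with Cd83, but had only 2 and 5 UMIs in Cd83-0 cells, so these zeros say little. Cst3 was at 319.8, 233.8, 234.6 and 480.7 CPM over the WT bins, with 85 of the last bin's 135 UMIs in the cell with 11 Fscn1 UMIs. Summed macrophage genes were at 441.9, 451.6, 410.0 and 566.1 CPM. Of 7 measured in the last bin, Apoe was higher, and Ly6c2 and Lyz2, which the gate caps, were lower. The part of such RNA in the bin values was not tested. T, NK, neutrophil and the joined erythroid and tumour lists summed to between 0 and 192.8 CPM in the 4 groups. Genes of plasmacytoid dendritic cells, several of which B cells share, were at 1711 against 2042 CPM in WT and 1932 against 2358 CPM in KO.

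The second question was how the KO and WT Cd83-expressing cells differed. Of 4654 genes measured, 465 (9.99%) passed the size rule, 249 higher (5.35%) and 216 lower (4.64%) in KO. In B cells with Cd83 at 0, 482 of 8162 (5.91%) passed, 267 higher (3.27%) and 215 lower (2.63%). Both rest on the same 2 libraries, so the values are given side by side.

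Most measured interferon-gamma response genes were higher in KO cells with and without Cd83. Gbp2, an interferon-induced GTPase (chromosome 3, 142620602 to 142638008), was at 95.1 CPM in KO and 11.3 CPM in WT Cd83-expressing cells, log2 3.07 [2.26, 3.91], though 48.6% of the KO UMIs were in 1 cell. In Cd83-0 cells it was at 21.9 and 8.16 CPM, log2 1.43. The Gbp2 ratio was 0.14 in T, 0.32 in NK and 1.07 in myeloid cells, and that of Gbp4 0.31, 0.46 and 1.23. Irf1, a transcription factor induced by interferon-gamma, was at 122.3 against 68.4 CPM in Cd83-expressing cells and at 141.3 against 58.3 CPM in Cd83-0 cells. In all 7 of 10 list genes were higher in Cd83-expressing cells, median 0.92 against -0.03 over all genes, and 10 of 15 in Cd83-0 cells, median 0.75. Over all measured genes 5.35% and 3.27% were higher. Only 10 of the 20 list genes reached 50 UMIs in Cd83-expressing cells, Gbp2 with 35 KO and 22 WT UMIs and Gbp4 with 21 and 30. The minimum thus favoured genes high in KO, and the count and median describe only the genes that reached it. In Cd83-expressing cells of 2000 to 5000 UMIs the median was 0.12.

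Some genes linked to marginal zone and B-1 cells were also higher. Plac8, a small cysteine-rich protein (chromosome 5, 100553725 to 100572245, minus strand), was at 1272 CPM in KO and 394.2 in WT Cd83-expressing cells, log2 1.69 [1.52, 1.86], and at 713.3 and 328.5 CPM in Cd83-0 cells, 1.12 [0.99, 1.24]. Its ratio was 0.42 in T, -0.29 in NK and 0.19 in myeloid cells. Bhlhe41, a repressor expressed in B-1a cells, was at 62.5 against 20.1 CPM and 42.7 against 7.75 CPM, log2 1.64 and 2.46; in Cd83-expressing cells of 2000 to 5000 UMIs its log2 ratio was -0.75. Zbtb20 was at 239.2 against 97.2 CPM and 161.1 against 92.2 CPM. Cr2, the complement receptor CD21 and a marginal zone marker, went the other way, 48.9 against 92.1 CPM. Of 7 measured genes 4 were higher and 1 lower, median 1.30; in Cd83-0 cells 6 of 11 were higher, median 0.81. The median in Cd83-expressing cells of 2000 to 5000 UMIs was 0.21. Among other genes, Ahnak was at 168.5 against 41.7 CPM, Vim, an intermediate filament, at 472.9 against 156.9 CPM, Serpina3g at 152.2 against 40.6 CPM and Gimap4, a lymphocyte GTPase, at 372.3 against 145.1 CPM. Each of these was also higher in Cd83-0 cells, by log2 1.55, 1.03, 1.06 and 0.74. In T, NK and myeloid cells the ratios were 0.97, 0.31 and 1.05 for Serpina3g and 0.08, 0.25 and 0.47 for Gimap4. They were -0.04, 0.06 and 0.09 for Ahnak and 0.20, 0.12 and 0.05 for Vim. A single KO cell held 32.3% of the Ahnak and 26.8% of the Serpina3g UMIs of the Cd83-expressing cells. Plac8, Vim and Ahnak were more abundant in another gated class, at up to 4077, 2835 and 835.0 CPM. Summed macrophage genes were at 752.8 CPM in KO and 459.5 in WT Cd83-expressing cells, 2 of 3 measured being higher, Apoe and Ly6c2, and the part of such RNA in these ratios was not tested. Wars, a tryptophanyl-tRNA synthetase, was at 67.9 against 15.4 CPM, Ass1, argininosuccinate synthase, at 62.5 against 14.4 CPM and Cib1 at 152.2 against 53.5 CPM.

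Class-switched cells were a larger share in the KO library. Of cells with 3 or more heavy-chain UMIs, those whose switched-class UMIs exceeded IgM and IgD numbered 6 of 74 KO (8.11% [3.03, 16.8]) and 5 of 485 WT (1.03% [0.336, 2.39]) Cd83-expressing cells, and 13 of 229 (5.68%) and 9 of 2035 (0.442%) Cd83-0 cells. Igha, the IgA heavy chain, was at 250.02 CPM in KO and 12.3 CPM in WT Cd83-expressing cells, log2 4.34 [3.68, 5.05], with 34.8% of the KO UMIs in 1 cell. Its ratio was also 2.21 in T, 1.94 in NK and 2.09 in myeloid cells, which do not transcribe this gene. Ighd was at 543.5 against 895.9 CPM, log2 -0.72 [-0.94, -0.51], and at 699.1 against 977.5 CPM in Cd83-0 cells. Lambda exceeded kappa light chain in 7.79% of KO and 8.79% of WT Cd83-expressing cells.

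Of 18 naive and homing genes 6 were lower and none higher in KO Cd83-expressing cells, median -0.36, against 4.64% of all measured genes lower. None of the 18 passed in Cd83-0 cells (median -0.20), against 5.91% of all. In cells of 2000 to 5000 UMIs the first median was -0.067. Satb1 was at 184.8 against 292.3 CPM, Cxcr4, a chemokine receptor, at 163.1 against 290.2 CPM, Foxo1, a factor that keeps lymphocytes quiescent, at 54.3 against 102.9 CPM and Bach2, a repressor of plasma cell fate, at 100.6 against 155.4 CPM. In gated T cells the log2 ratios of these genes were -0.82, -0.34, -0.48 and -0.73. They were -0.13, 0.14, -0.13 and -0.11 in NK cells, and 0.19, 0.38, -0.57 and 0.21 in myeloid cells. Irs2 was at 67.9 against 161.1 CPM, log2 -1.25 [-1.90, -0.66], and at 57.0 against 77.8 CPM in Cd83-0 cells, -0.45 [-0.89, -0.04]. The Irs2 ratio was -0.58 in T, -0.11 in NK and -0.15 in myeloid cells. Vpreb3, a chaperone of immunoglobulin assembly, was at 130.4 against 275.8 CPM, log2 -1.08 [-1.54, -0.65], and at 271.7 against 295.6 CPM in Cd83-0 cells, -0.12 [-0.32, 0.07]. The 2 Vpreb3 intervals do not overlap. The Vpreb3 ratio in Cd83-expressing cells rests on 48 KO UMIs in 28 cells. It ran from -1.61 to -0.26 over the alternative settings. Itgb3, an integrin subunit, had no UMI in KO Cd83-expressing cells and 33.4 CPM in WT, a log2 ratio of -2.04 at the floor of 3 UMIs, which is a bound. Zfp407, Rflnb, Acsf2 and Slc16a6 had 1 to 3 KO cells with a UMI and were also past the rule. Plk2, a polo-like kinase, was at 16.3 against 67.4 CPM, and Cenpa, a centromeric histone, at 24.5 against 86.4 CPM. Ctse, an endosomal protease, was at 46.2 against 96.2 CPM, and was lower also in T, NK and myeloid cells (-1.73, -1.21 and -1.06).

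Of the 10 genes higher with Cd83 in both libraries, 2 were higher in KO than in WT Cd83-expressing cells, 1 was lower and 7 did not pass the rule. Rilpl2 was at 122.3 against 43.2 CPM, with a log2 interval of [0.94, 2.04], and Hist1h1b at 108.7 against 215.1 CPM, log2 -0.98 [-1.49, -0.51]. Myc was at 70.7 CPM in KO and 71.5 in WT Cd83-expressing cells, log2 -0.02 [-0.68, 0.59], and Nr4a1 at 70.7 and 72.0 CPM. Cd274 was at 65.2 and 81.3 CPM, log2 -0.32 [-1.0, 0.31]. Il4i1 was higher, at 108.7 against 55.1 CPM (0.98 [0.42, 1.52]), with a ratio of 0.31 [-0.26, 0.84] in Cd83-0 cells. Of 17 activation genes 6 were higher and none lower, median 0.39: Il4i1, Cd69, Cd44, Icam1, Batf and Pim1. Over all measured genes 5.35% were higher. The activation median ran from 0.08 to 0.57 over the alternative settings. In Cd83-0 cells 1 of 19 was higher, Cd44, with a median of 0.19, against 3.27% of all measured genes higher. Cd69 was at 440.3 against 292.8 CPM (0.59 [0.33, 0.84]), with a ratio of 0.49 [0.32, 0.66] in Cd83-0 cells. Of 17 early-response and 17 NF-kB genes none passed, medians -0.09 and -0.03, against 9.99% of all measured genes. H2-Aa was at 3710 against 3549 CPM. The intervals of Myc and Cd274 are wide, so a moderate difference in either direction is not detectable at this depth.

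**Figure D5:**
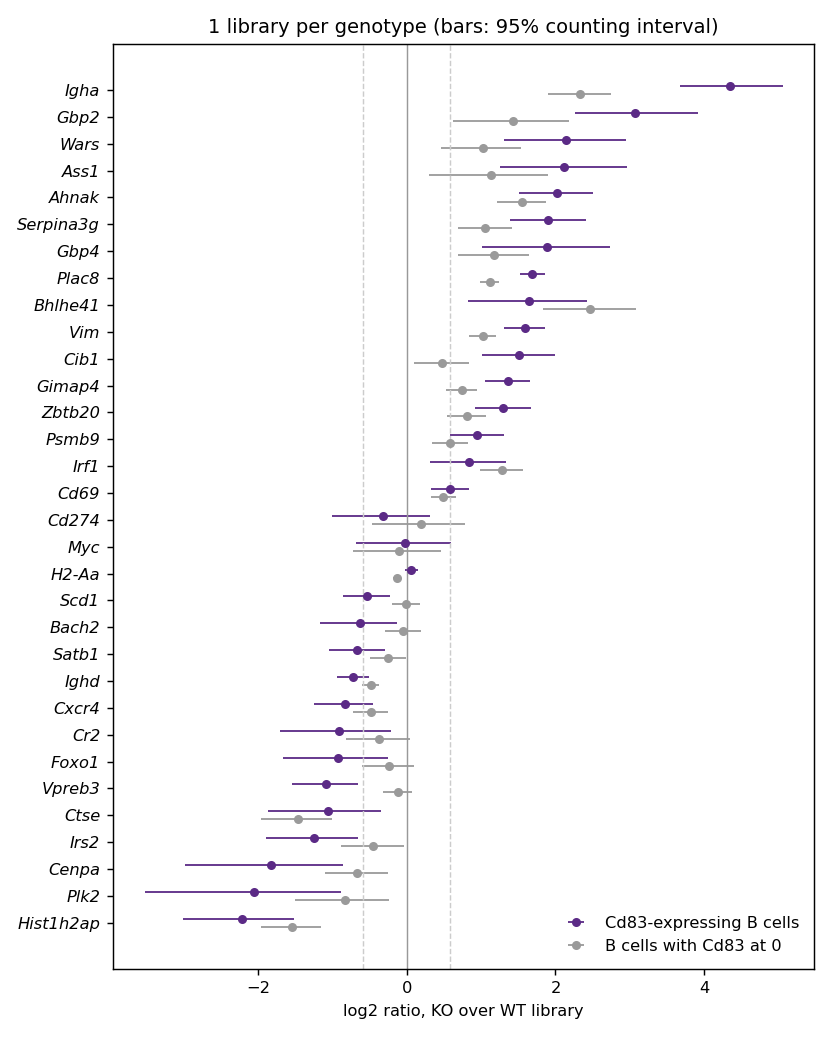
Log2 ratio of the KO over the WT library for named genes, in Cd83-expressing B cells and in B cells with Cd83 at 0, with 95% counting intervals; dashed lines mark 1.5-fold. Plac8 and Ahnak lie to the right in both groups, Vpreb3 lies at -1.08 and -0.12, and Myc lies near 0 in both.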

How the data were processed

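Single CD45+ DAPI- cells had been loaded on the 10x Genomics 3' v3.1 chemistry, per the labels, and UMI counts per gene and barcode were deposited as whole numbers without normalization. The matrix headers name Cell Ranger 5.0.0, and Cell Ranger and STAR with mm10 are named per the submitters' processing notes; no source used here gives the annotation release. The WT and KO matrices held 98438084 and 112544655 UMIs over 11432 and 11398 barcodes, of which 42 sequences were shared. Cells with at least 1000 UMIs, 500 genes and at most 10% mitochondrial UMIs were kept, 11153 and 11131. No doublets were removed for the main values; Scrublet (scanpy 1.11.5) scores served an alternative.

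Counts were summed over the cells of a group and scaled to CPM. Ratios carry exact conditional binomial 95% intervals and shares Clopper-Pearson 95% intervals; PCR and cell sampling error are not covered, and a share of 0 is given with the limit of 3 counts. The ratio code was tested on simulated data. Genes were named by a rule: in the Cd83 comparison the first 15 each way, ranked by the WT interval bound nearest to no difference, among genes with at least 50 WT and 20 KO UMIs, 20 CPM, at least 0.1 of the level of the highest gated class and the same direction in both libraries; in the genotype comparison the first 10 each way; and up to 8 members of each list, of which 28 were used. The text gives a part of those named, and some are not reported here. Cells, bins and lists were chosen with earlier results of these data known. Gene coordinates come from GENCODE vM21, matched by gene identifier. Python 3 with scipy and numpy was used.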

Additional observations from a re-analysis of the deposited data

How the results depend on the processing

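No paired analysis was possible because each genotype has 1 library. The share of gated B cells with a Cd83 UMI was 6.15% in WT and 8.36% in KO when 2 Cd83 UMIs were required, and 12.4% and 13.3% when the gate was set on cells thinned to 2000 UMIs. Genes past the size rule for Cd83 in WT numbered 691 with 2 Cd83 UMIs required, 544 with no minimum count, 94 at 200 UMIs or more and 128 under a 2-fold rule, against 346. For Cd83 in KO the numbers were 125 with more lineage genes excluded, 116 in cells of 2000 to 5000 UMIs, 79 under both forms of thinning, 463 with no minimum, 21 at 200 UMIs and 71 under a 2-fold rule, against 198. For KO over WT they were 256 with more lineage genes excluded, 258 with 2 Cd83 UMIs required, 198 in cells of 2000 to 5000 UMIs, 84 with the gate on thinned cells, 171 with thinned counts, 700 with no minimum, 150 at 200 UMIs and 196 under a 2-fold rule, against 465. Genes higher in both libraries, 10 in the main count, numbered 4 with more lineage genes excluded, 5 at a mitochondrial share up to 5%, 39 with 2 Cd83 UMIs, 3 in cells of 2000 to 5000 UMIs and with the gate on thinned cells, 2 with thinned counts, 26 with no minimum, 0 at 200 UMIs and 4 under a 2-fold rule. At 200 UMIs fewer genes are tested.

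Some named values changed sign, and the cause was not tested. In WT the Stmn1 ratio was -0.24 in cells of 2000 to 5000 UMIs, -0.27 without cells above 10000 UMIs and -0.40 without cycling cells, and the cell-cycle median was -0.030 in cells of 2000 to 5000 UMIs. In KO Hspa1a was -0.52 and Hspa1b -0.18 at a mitochondrial share up to 5%, and -2.34 and -0.47 with the gate on thinned cells, where Nfkbid was -0.30 and Pim1 -0.052. Pim1 was -0.024 in cells of 2000 to 5000 UMIs, and the NF-kB median was -0.017 with 2 Cd83 UMIs. For KO over WT, Gbp4 was -0.94 with 2 Cd83 UMIs, Bhlhe41 -0.75 in cells of 2000 to 5000 UMIs and Ass1 -0.40 with the gate on thinned cells. Of the named genes past the rule, 34 of 35 for Cd83 in WT, 11 of 15 in KO and 32 of 35 for KO over WT kept their direction in every alternative run. The log2 ratio of Cd274 ran from 1.70 to 2.71 in WT and 0.72 to 2.00 in KO, that of Myc from 0.96 to 1.96 and 0.31 to 1.99, and the KO over WT ratio of Plac8 from 0.69 to 1.80. The Cd83-expressing KO group of 77 cells limits every KO value, and with 1 library per genotype the differences between libraries cannot be told apart from differences between animals or preparations.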
